A study of Homo sapiens with 4 samples.

Results

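LCP1 and 9 other genes of the actin system were followed here through every library of the series. All but ACTA2, which encodes an actin, encode proteins that bundle actin filaments, tie them to membranes or coat them. The 10 genes were LCP1, PLS1, PLS3, FSCN1, CORO1A, EZR, MSN, RDX, TAGLN and ACTA2. They were chosen by symbol with the difference between wild-type and TMEM9 KD libraries in view. Their differences are therefore given as a description without a test. All 10 symbols matched 1 row each among the 48162 genes of the count table.

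The cells were labelled MDA-MB-453, a human breast cancer line. The series' design line calls the profiles retinal, while each sample label names the breast line. Total RNA was sequenced from 2 libraries of wild-type cells (WT) and 2 of cells with the genotype TMEM9 KD. The product of TMEM9 is a transmembrane protein found on endosomes and lysosomes. How TMEM9 was reduced, and whether the cells were 1 clone or a pool, was not stated in the labels. Nor do they state separate cultures behind the libraries of 1 group, and the spread that the p-values measure is then that between libraries and may be technical.

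Plastins (fimbrins) cross-link actin filaments into tight, parallel bundles. LCP1 encodes L-plastin, the form of white blood cells that many carcinoma cells also make. PLS3 encodes T-plastin of solid tissues and PLS1 the plastin of intestinal microvilli. Fascin, from FSCN1, stiffens the bundles in filopodia and invasive protrusions. Coronin 1A, from CORO1A, binds filaments and the Arp2/3 branching complex and is best known from leukocytes. Ezrin, moesin and radixin (EZR, MSN and RDX, together ERM proteins) link filaments to receptors in the plasma membrane. Transgelin (TAGLN) and smooth muscle alpha-actin (ACTA2) belong to the contractile program of smooth muscle and myofibroblasts that is driven by serum response factor, SRF.

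Promoter sequence was available from RefSeq (GRCh38.p14) for 8 of the 10 genes, not for FSCN1 and TAGLN. Below are the 250 bases before the transcription start of LCP1 and CORO1A, both best known from leukocytes and both lower in TMEM9 KD, and of EZR, the gene with the highest fitted log2 fold change of the 10. Capitals mark matches on either strand. The PU.1/ETS motif searched was GAGGAAGT. For the GC box, bound by the widespread factor SP1, the letters were GGGCGG. The element named TATA box, which helps place the transcription start, was searched as TATAAA. The motif of AP-1, a factor of growth and stress signalling, was searched as TGANTCA.
LCP1 promoter, chr13:46182178-46182427, minus strand: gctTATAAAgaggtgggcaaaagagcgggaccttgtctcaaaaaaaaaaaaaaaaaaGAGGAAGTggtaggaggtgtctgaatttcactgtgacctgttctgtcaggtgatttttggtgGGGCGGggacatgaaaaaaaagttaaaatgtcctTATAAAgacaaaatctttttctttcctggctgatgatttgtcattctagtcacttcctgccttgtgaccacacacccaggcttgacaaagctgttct
CORO1A promoter, chr16:30183352-30183601, plus strand: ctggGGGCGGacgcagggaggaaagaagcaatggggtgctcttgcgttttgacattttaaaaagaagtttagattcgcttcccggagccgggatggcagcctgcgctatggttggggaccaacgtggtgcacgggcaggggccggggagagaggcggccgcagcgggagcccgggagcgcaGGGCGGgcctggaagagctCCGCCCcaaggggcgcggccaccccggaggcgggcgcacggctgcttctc
EZR promoter, chr6:158818236-158818485, minus strand: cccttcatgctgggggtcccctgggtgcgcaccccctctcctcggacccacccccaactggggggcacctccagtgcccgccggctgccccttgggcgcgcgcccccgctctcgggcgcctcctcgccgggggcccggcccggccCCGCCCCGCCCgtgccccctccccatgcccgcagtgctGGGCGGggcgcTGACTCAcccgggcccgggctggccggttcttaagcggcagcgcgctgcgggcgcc
The LCP1 window was poor in CpG, with 2 CpG dinucleotides and 41.2% G and C. As few CpG were found in 22.9% of 34788 RefSeq promoter windows of that length. It held 1 match to the PU.1/ETS motif, which 2.18% of all windows held. There were also 2 matches to the TATA box (10.8% of windows) and 1 to the GC box (42.6%). Of the TATA box matches, 1 lay near the far end of the window, and neither lay close to the start. The CORO1A window held 23 CpG and 3 GC boxes, with 0 matches to the PU.1/ETS motif. The EZR window had 28 CpG, 3 GC boxes and 1 AP-1 match, which 6.59% of all windows held. A match describes the letters only, and the start that these cells use was not measured.

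The libraries held 15323843 to 18517337 counts in genes. TMEM9 itself was at 74.9 and 83.3 CPM in WT 1 and 2 and at 3.12 and 4.47 CPM in TMEM9 KD 1 and 2, where CPM is a count scaled to one common library total after TMM normalisation. Over all genes, 57.7% of the 14923 tested passed an edgeR adjusted p of 0.05 (28.7% higher and 29% lower in TMEM9 KD), and in 77.6% the libraries of the groups did not overlap. Markers of the labelled line were mixed. ERBB2 (53.3 to 63.8 CPM), XBP1, KRT8 and KRT18 were present in each library, while 6 of 15 luminal and apocrine markers (SPDEF, AGR2, PIP, TFAP2B, EPCAM and KRT19) stayed under 1 CPM in all 4. The markers also differed between the groups: of 9 tested, 3 rose and 5 fell by edgeR. FGFR4 fell from 35.0 and 35.5 CPM in WT to 3.05 and 3.67 CPM in TMEM9 KD, MLPH fell, and FOXA1, GATA3 and KRT18 rose. FOXA1 was scarce throughout, at 2.94 and 2.73 CPM in WT and 7.51 and 8.25 CPM in TMEM9 KD. So was GATA3, at 2.01 and 3.12 CPM in WT and 5.92 and 6.82 CPM in TMEM9 KD. MLPH passed the filter on low counts only through the WT libraries.

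Levels of the 10 genes spanned more than 2 orders of magnitude. The 10 genes are ranked here per kilobase of exon. On that scale FSCN1 was highest in WT at a mean of 254.5 CPM per kb, followed by MSN (135.7), PLS3 (71.5), EZR (64.6) and LCP1 (36.5). RDX (14.0), PLS1 (8.98), ACTA2 (1.14), CORO1A (1.03) and TAGLN (0.696) came next. In WT, LCP1 was above 91.0% of tested protein-coding genes on that scale and FSCN1 above 99.2%, whereas TAGLN was above 14.4%. With the longest coding transcript as length in place of all exons, CORO1A and ACTA2 changed places, so their order is not settled. In TMEM9 KD, LCP1 went from rank 5 to rank 7, with a mean of 1.22 CPM per kb, and EZR (91.5) stood above PLS3 (65.8). RDX and PLS1 overlapped there, as did CORO1A and ACTA2.

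**Figure D1:**
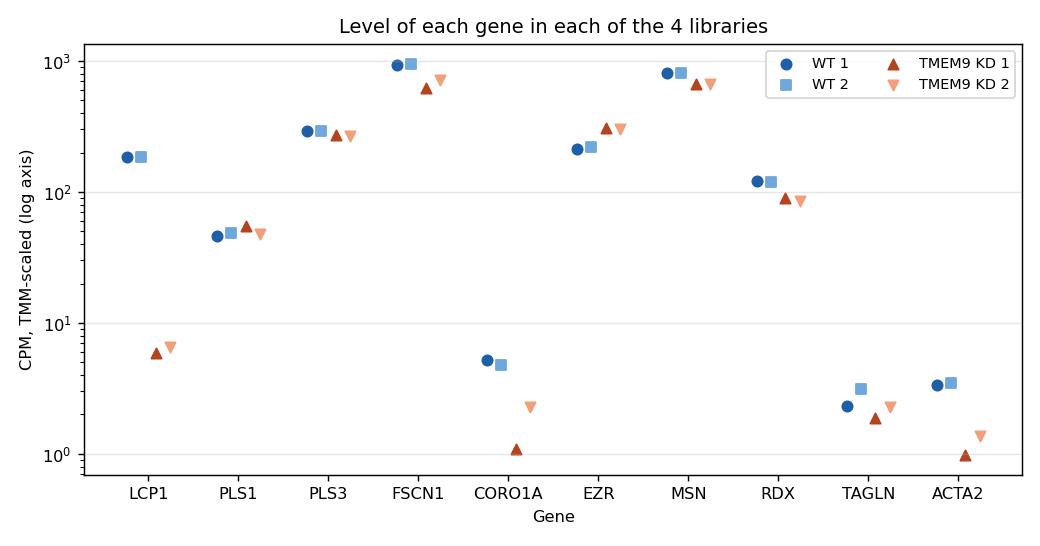
CPM of each gene (log axis) in WT 1 and 2 and TMEM9 KD 1 and 2, 1 point per library. The LCP1 points lie at 185.8 and 183.5 CPM in WT and at 5.86 and 6.53 CPM in TMEM9 KD, whereas those of PLS1 overlap between the groups.

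Across all 10 genes, 8 had a lower mean and 2, PLS1 and EZR, a higher mean in TMEM9 KD. The median log2 fold change was -0.42, beside 0.01 over all genes tested. All 10 passed the filter on low counts, and each had at least 16 counts in every library. The libraries of the groups did not overlap for 9 of the 10, beside the 77.6% of all genes given above, and the exception was PLS1. With scaling by library size only, the exception was TAGLN in place of PLS1, so the overlap of these 2 genes depends on the scaling. Because the genes were chosen on this contrast, nothing is read from these counts.

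Among the plastins, LCP1 had the largest difference by far. LCP1 (ENSG00000136167) stood at 185.8 CPM in WT 1 and 183.5 CPM in WT 2, against 5.86 CPM in TMEM9 KD 1 and 6.53 CPM in TMEM9 KD 2. In counts these were 2778 and 3299 reads against 96 and 114. The groups were far apart, and each pair of libraries agreed closely. The mean was 184.7 ± 1.61 CPM in WT and 6.20 ± 0.472 CPM in TMEM9 KD (SD, n = 2 each), 29.8-fold lower, with a fitted log2 fold change of -4.89 (SE 0.0975). Over all genes tested, 140 had a lower log2 fold change than LCP1. Of the 1107 with a WT mean CPM at least that of LCP1, 3 did. LCP1 was chosen with this contrast in view, so its place is a description only. The plot of group means shows LCP1 apart from the other 9.

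**Figure D2:**
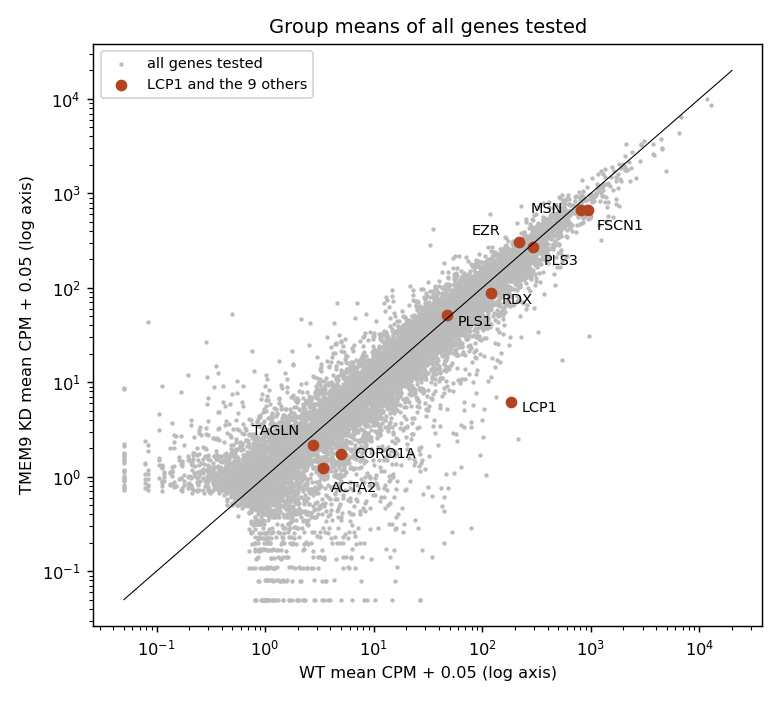
Mean CPM in WT (x axis) and TMEM9 KD (y axis) for the 14923 genes tested (grey, both axes log, 0.05 added for display), with the 10 genes in red and a line of equality. LCP1 lies at 184.7 CPM in WT and 6.20 CPM in TMEM9 KD, far under the line, and the other abundant genes of the 10 lie near it.

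The other plastins did not share the size of that difference. PLS3 (ENSG00000102024) was at 292.5 and 293.8 CPM in WT and at 272.6 and 267.2 CPM in TMEM9 KD, 7.93% lower. PLS1 (ENSG00000120756) was at 46.1 and 49.0 CPM in WT and at 54.9 and 47.9 CPM in TMEM9 KD. The PLS1 values of the groups overlapped on this TMM scale, as TMEM9 KD 2 lay between the WT libraries. Fitted log2 fold changes were -0.12 for PLS3 and 0.11 for PLS1.

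The make-up of the plastin messages differed accordingly. Per kilobase, LCP1 made up 31.4% and 30.9% of the summed plastin level in WT 1 and 2, and 1.48% and 1.71% in TMEM9 KD 1 and 2. PLS3 held 61.1% and 61.2% in WT and 85.2% and 86.3% in TMEM9 KD. The share of PLS1 was 7.45% and 7.90% in WT and 13.3% and 12.0% in TMEM9 KD, although its own level overlapped between groups on the TMM scale. The sum of the 3 plastins was 34.4% lower in TMEM9 KD (117.0 against 76.8 CPM per kb).

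**Figure D3:**
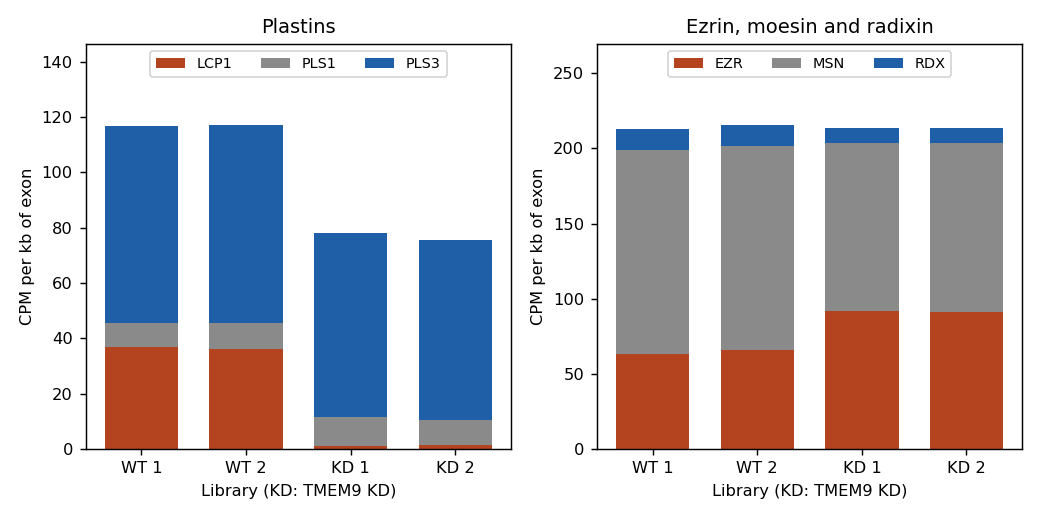
Stacked CPM per kb of exon in each library for the plastins (left) and for ezrin, moesin and radixin (right), 1 bar per library and 1 colour per gene. LCP1 is 31.4% and 30.9% of the plastin bars in WT and 1.48% and 1.71% in TMEM9 KD, and EZR is 29.6% and 30.6% of the ERM bars in WT and 43.0% and 42.6% in TMEM9 KD.

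LCP1 lies on chromosome 13. Of the 4 nearest protein-coding genes of the table on each side (GENCODE 29 order), 5 had at most 2 counts in any library. The other 3 all fell by edgeR, beside 29% lower over all genes tested. ZC3H13, which acts in RNA methylation, went from 114.0 ± 0.487 to 76.5 ± 3.09 CPM (log2 fold change -0.57, edgeR adjusted p = 2.28e-11). LRCH1 had a log2 fold change of -0.55 (edgeR adjusted p = 1.32e-05) and ESD, an esterase, one of -0.34 (edgeR adjusted p = 2.88e-05). These neighbours were looked at after the data were seen.

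The 5 genes whose profile was nearest to LCP1, by Euclidean distance in log2(CPM + 0.5) over the 4 libraries, were NOTCH3, MGP, IL1A, CELSR1 and KRT75. NOTCH3, a Notch receptor, was nearest at a distance of 0.69, with 132.8 and 136.1 CPM in WT and 5.92 and 7.85 CPM in TMEM9 KD. KRT75, a keratin of hair follicles, was at 99.8 and 99.0 CPM in WT and 3.97 and 3.90 CPM in TMEM9 KD, at a distance of 1.52. With 4 libraries in 2 groups, such likeness rests on the level and the group difference alone.

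L-plastin and coronin 1A are leukocyte proteins, so markers of white blood cells were read beside them. Of 22 leukocyte markers, 16 stayed under 1 CPM in all 4 libraries, and CD3E, MS4A1, CD52, CD48, AIF1 and IKZF1 had no counts. The summed level of the 22 was 45.5 and 53.6 CPM in WT and 9.47 and 9.05 CPM in TMEM9 KD. Most of the WT sum was LAPTM5, a lysosomal membrane protein, with 27.7 and 35.4 CPM in WT and 0.550 and 0.917 CPM in TMEM9 KD. Of 6 tested, 5 fell and 1 rose by edgeR, beside 29% lower and 28.7% higher over all genes tested. Among the 5, CD74 and LAPTM5 passed the filter on low counts only through the WT libraries. The one that rose was PTPRC, the pan-leukocyte antigen CD45, with 2.27 and 2.78 CPM in WT and 4.40 and 4.01 CPM in TMEM9 KD. In bulk RNA, fewer cells of a type and less RNA per cell cannot be told apart. The part of these markers in the LCP1 and CORO1A differences was not tested.

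FSCN1 (ENSG00000075618), the most abundant of the 10, was at 923.9 and 955.6 CPM in WT and at 621.3 and 721.3 CPM in TMEM9 KD. All TMEM9 KD values lay below all WT values, but the TMEM9 KD pair was the wider one. The mean was 28.6% lower, with a log2 fold change of -0.49.

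CORO1A (ENSG00000102879) was scarce, at 5.22 and 4.78 CPM in WT and at 1.10 and 2.29 CPM in TMEM9 KD. These rest on 78 and 86 counts in WT and 18 and 40 in TMEM9 KD, and the TMEM9 KD libraries differed 2.08-fold from each other. The log2 fold change of -1.54 became -1.11 without TMEM9 KD 1 and -2.18 without TMEM9 KD 2. An antisense gene overlaps its exons but had 0 counts in every library.

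The ERM genes went in opposite directions. EZR (ENSG00000092820) was at 211.1 and 220.6 CPM in WT and at 307.3 and 304.4 CPM in TMEM9 KD, 41.7% higher in the mean. MSN (ENSG00000147065) was at 810.5 and 810.1 CPM in WT and at 665.0 and 672.9 CPM in TMEM9 KD, 17.4% lower in the mean. RDX (ENSG00000137710) was at 120.5 and 119.2 CPM in WT and at 90.0 and 84.7 CPM in TMEM9 KD, 27.1% lower in the mean. For all 3 genes the groups were apart by more than the gap within either pair.

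Their sum hardly differed. Per kilobase it was 213.0 and 215.6 CPM per kb in WT and 213.9 and 213.7 CPM per kb in TMEM9 KD. With scaling by library size only, the mean sum was 4.98% higher in TMEM9 KD in place of 0.25% lower. Within the sum, MSN held 63.7% and 62.9% in WT and 52.1% and 52.7% in TMEM9 KD, RDX stayed the smallest at 4.65% to 6.63%, and EZR took the rest. Moesin messages stayed the most abundant of the 3 in every library.

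The smooth muscle genes were near the bottom of the range. ACTA2 (ENSG00000107796) was at 3.34 and 3.45 CPM in WT and at 0.977 and 1.38 CPM in TMEM9 KD, from 50 and 62 counts against 16 and 24. TAGLN (ENSG00000149591) was at 2.34 and 3.12 CPM in WT and at 1.89 and 2.29 CPM in TMEM9 KD. For TAGLN the lower WT value and the higher TMEM9 KD value nearly met, and with scaling by library size only they crossed. Both genes share exon sequence with a gene on the opposite strand, ACTA2 with the death receptor gene FAS (430 and 542 counts in WT, 277 and 256 in TMEM9 KD) and TAGLN with the protease gene PCSK7 (645 and 842 in WT, 564 and 598 in TMEM9 KD). ACTA2 also shares exon sequence with the antisense gene ACTA2-AS1, over 516 bases (380 for FAS). ACTA2-AS1 had 7 and 1 counts in WT and 10 and 11 in TMEM9 KD. As no strand setting is given, reads of each pair cannot be told apart there. ACTA2 also resembles the other actin genes in sequence, so some reads may have been split among them.

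Fibroblast and mural cell markers moved beside these genes in both directions. Their summed level was 1131 and 1148 CPM in WT and 1513 and 1675 CPM in TMEM9 KD. Most of it was COL1A1, with 815.2 and 832.1 CPM in WT and 1300 and 1473 CPM in TMEM9 KD. The higher sum in TMEM9 KD rests on that gene. DES, CNN1 and COL1A2 were under 1 CPM in all 4 libraries, and MYH11, the smooth muscle myosin, was at 1.67 to 2.45 CPM. Of 9 markers tested, 4 rose and 3 fell by edgeR, beside 28.7% higher and 29% lower over all genes tested. Among the 4, LUM passed the filter on low counts only through the TMEM9 KD libraries. The 3 that fell were PDGFRA (244.0 and 243.8 CPM in WT, 152.3 and 142.0 in TMEM9 KD), PDGFRB and THY1. The part of these markers in the ACTA2 and TAGLN differences was not tested.

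Other genes of the actin system were read from 8 lists that hold none of the 10, with p-values adjusted over all 14923 genes. Their counts stand beside a background of 28.7% higher and 29% lower, and the plot of log2 fold changes by list shows each gene.

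**Figure D4:**
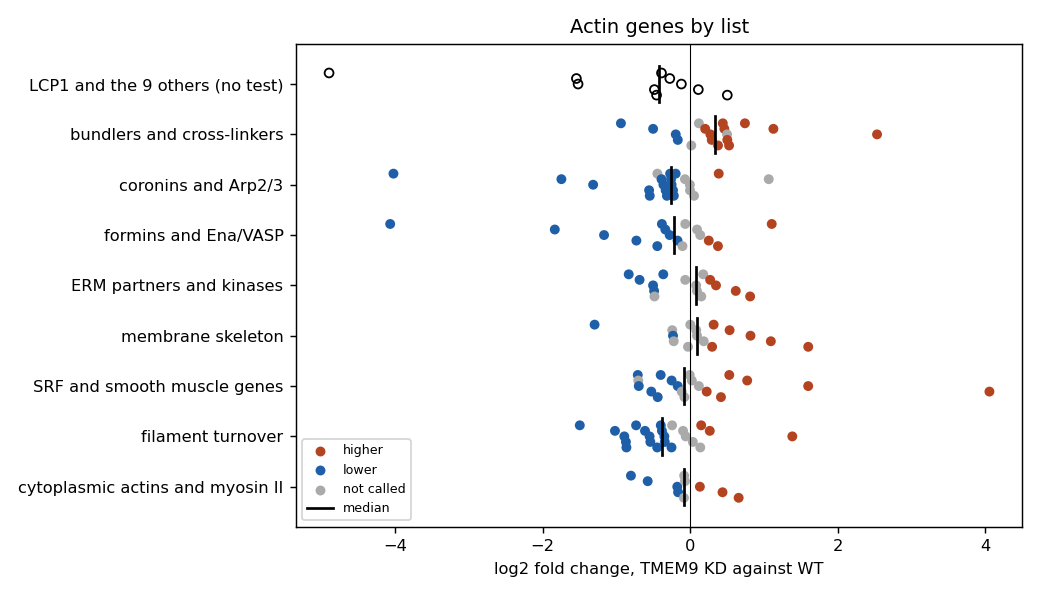
Log2 fold change of TMEM9 KD against WT for each tested gene of 8 actin lists, coloured by edgeR call (red higher, blue lower, grey not called), with LCP1 and the 9 others as open circles without a test and a bar at each median. Filament turnover genes lie mostly left of 0 (15 of 23 lower), and bundlers and cross-linkers mostly right of it (11 of 18 higher).

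Bundlers and cross-linkers outside the plastins and FSCN1 were read first. Of 18 tested, 11 rose and 4 fell (12 and 2 with scaling by library size only), with a median log2 fold change of 0.33. FLNC, a muscle filamin that holds filaments in networks, rose from 1.53 ± 0.274 to 8.96 ± 1.10 CPM (edgeR adjusted p = 9.1e-16, log2 fold change 2.53, SE 0.247). GAS2L3, which links actin to microtubules, rose from 32.2 ± 0.753 to 70.5 ± 6.20 CPM, and LIMA1, which stabilises bundles, from 227.2 ± 5.76 to 379.8 ± 18.8 CPM. The 4 that fell went to 1 without WT 1 and to 2 without WT 2.

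Coronins were read with the Arp2/3 system, which branches filaments. Of 22 genes tested, 15 fell and 1 rose, with a median of -0.27. CORO2A, another coronin, fell from 9.74 ± 1.26 to 0.588 ± 0.141 CPM (edgeR adjusted p = 1.97e-22, log2 fold change -4.02, SE 0.295). It had 159 counts in each WT library against 8 and 12 in TMEM9 KD. CORO2A passed the filter on low counts only through the WT libraries, as did CORO6. The Arp2/3 subunit genes ARPC1A and ARPC1B fell by 0.56 and 0.55 on the log2 scale. CORO1C, the ubiquitous coronin, was at 297.9 ± 3.35 CPM in WT and 297.3 ± 0.889 CPM in TMEM9 KD (edgeR adjusted p = 0.969), and ARPC5L was the gene that rose. CORO1C and ARPC5L were picked after their values were seen.

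Formins and Ena/VASP proteins extend unbranched filaments. Of 16 tested, 9 fell and 3 rose, with a median of -0.22. Of the 9 that fell, DAAM2 passed the filter on low counts only through the WT libraries. FHOD3, a formin of striated muscle, had a log2 fold change of -1.83 (SE 0.134, edgeR adjusted p = 1.32e-22). FMNL1, a leukocyte formin, fell from 57.5 ± 0.816 to 25.6 ± 0.741 CPM (log2 fold change -1.17, edgeR adjusted p = 2.14e-20). DAAM1, a formin of Wnt signalling, rose from 16.9 ± 0.432 to 36.3 ± 2.73 CPM.

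Partners, regulators and relatives of ERM proteins went in both directions, at shares near those of all genes tested (28.7% higher and 29% lower). Of 15 tested, 4 rose (26.7%) and 5 fell (33.3%), with a median of 0.08. With scaling by library size only, 7 rose and 5 fell. CD44, a hyaluronan receptor that ERM proteins bind, fell from 1436 ± 26.3 to 806.4 ± 22.0 CPM (edgeR adjusted p = 8.68e-28, log2 fold change -0.83, SE 0.0502). ICAM1, an adhesion receptor bound by ERM proteins, fell from 77.4 ± 2.46 to 48.1 ± 4.93 CPM. NF2, whose product merlin is a close relative of ERM proteins, rose from 68.4 ± 4.76 to 119.9 ± 10.7 CPM (log2 fold change 0.81, edgeR adjusted p = 2.67e-17).

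In the membrane skeleton of spectrins, ankyrins and adducins, 6 of 15 genes rose and 2 fell, with a median of 0.09. With DESeq2 size factors in edgeR, 5 rose and 3 fell, and with scaling by library size only, 9 rose and 2 fell. The lower count also depended on single libraries. ANK2 rose from 10.1 ± 1.19 to 30.5 ± 4.39 CPM and ADD2 from 18.1 ± 1.30 to 38.7 ± 4.52 CPM. ANK1, the ankyrin best known from red blood cells, fell from 8.66 ± 0.523 to 3.51 ± 0.134 CPM (log2 fold change -1.30, edgeR adjusted p = 6.57e-08).

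Genes of SRF and smooth muscle, the program of TAGLN and ACTA2, did not share a direction. Of 19 tested, 6 rose (31.6%) and 7 fell (36.8%), near the 28.7% and 29% over all genes tested, with a median of -0.08. MYL9, a myosin light chain, rose from 3.59 ± 0.822 to 11.0 ± 1.63 CPM (edgeR adjusted p = 1.47e-11, log2 fold change 1.60, SE 0.196) and CNN3, a calponin, from 56.3 ± 0.358 to 96.2 ± 3.27 CPM. VCL, encoding vinculin of adhesion sites, fell from 454.9 ± 0.760 to 278.0 ± 6.89 CPM. ACTG2, smooth muscle gamma-actin and 1 of the 6, had 5 and 7 counts in WT and 92 and 117 in TMEM9 KD. It was picked after its values were seen and passed the filter on low counts only through the TMEM9 KD libraries, and actin genes may share reads.

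Genes of filament turnover, which sever, cap or store actin, fell in 15 of 23 and rose in 3, with a median of -0.38. TMSB4X, thymosin beta-4, which holds actin monomers, fell from 1602 ± 36.9 to 568.1 ± 18.2 CPM (edgeR adjusted p = 6.02e-46, log2 fold change -1.50, SE 0.0513). SSH3, a phosphatase that activates cofilin, fell from 19.1 ± 3.21 to 9.35 ± 1.04 CPM, and CAP2, a cyclase-associated protein, rose from 11.4 ± 1.14 to 29.7 ± 3.02 CPM. The 3 that rose went to 1 without WT 1 and to 1 without WT 2.

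The last list held the cytoplasmic actins and myosin II. Of 10 genes tested, 3 rose and 4 fell (3 and 2 with scaling by library size only), with a median of -0.08. ACTB, the main cytoplasmic actin, was at 6812 CPM in WT and 6482 CPM in TMEM9 KD (log2 fold change -0.07, edgeR adjusted p = 0.161), a gene picked after its values were seen. ACTG1, the other cytoplasmic actin, fell from 3806 ± 63.5 to 2553 ± 110.6 CPM (edgeR adjusted p = 5.04e-20). Of the non-muscle myosin heavy chains, MYH9 rose from 2117 ± 30.9 to 3337 ± 288.1 CPM and MYH10 fell from 102.2 ± 11.1 to 58.6 ± 2.16 CPM. The 4 that fell went to 2 without WT 1, to 2 without WT 2 and to 7 without TMEM9 KD 2.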

How the data were processed

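Raw counts per Ensembl gene, as the authors deposited them, came in 1 table with a column for each of the 4 libraries, and columns were matched to samples by title. CASAVA and Bowtie 0.12.2 are named, per the submitters' processing notes, as are the builds mm8 and hg19, with no role given. For the counter, the annotation and the strand, the sources used here state nothing. Lengths, overlaps and gene order came from GENCODE 29, which is of another build, so only the RefSeq promoters carry coordinates.

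Counts were tested with edgeR 4.0.16 in R 4.3.3 (quasi-likelihood F test, TMM, group as the only term, filterByExpr with a minimum count of 10 and total of 15, Benjamini-Hochberg adjustment over all genes tested, threshold 0.05), with 2 residual degrees of freedom. The SE was computed as |log2 fold change| divided by the root of F. The procedure was also run on simulated data in which few genes differed and all genes had the same spread. That run does not cover the large share of changed genes or the unequal spread within pairs seen here. The 10 genes and the lists were chosen with earlier results of these data known. Beside the 10, the text names the 5 genes most like LCP1, the most abundant gene of marker lists and up to 3 genes of each actin list: those that changed most by log2 fold change, required to pass the threshold, to average 5 CPM or more over the libraries and to have groups that do not overlap. Genes named outside this rule are marked, serve as markers or are named only for how they passed the filter on low counts. Alternatives were DESeq2 1.42.0, limma 3.58.1 voom, other scalings and filters, edgeR against 1.5-fold, the replicate number as a block, and fits that omit 1 library. Within pairs the spread was above counting noise (chi-square over degrees of freedom 2.04 in WT and 4.82 in TMEM9 KD), so no pair was treated as 1 library deposited under 2 names. This does not show that they came from separate cultures.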

Additional observations from a re-analysis of the deposited data

How the results depend on the processing

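Each of the 10 genes kept its direction in every fit that held it, over the scalings, filters, tools and left-out libraries tried. The log2 fold changes of LCP1 lay between -4.98 and -4.81 and those of PLS1 between 0.01 and 0.20. The median over the 10 genes was -0.28 with a mean of at least 5 CPM, which kept 7 of them and removed CORO1A, TAGLN and ACTA2. It ran from -0.48 to -0.32 over fits without 1 library. The order of levels kept 8 of 10 ranks with the longest coding transcript. With library size only, a scaling added for the sums and the overlaps after the data were seen, the difference of the plastin sum was -30.9% and that of the ERM sum 4.98%. All list genes named by the rule kept their direction, and 5 were not called against 1.5-fold (ARPC1A, ARPC1B, ICAM1, MYH9 and ACTG1).

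With glmTreat of edgeR against 1.5-fold, calls over all genes were 1111 higher and 1692 lower, and in the lists, as higher and lower, 3 and 0 (bundlers), 0 and 2 (coronins and Arp2/3), 1 and 4 (formins), 1 and 1 (ERM partners), 3 and 1 (membrane skeleton), 3 and 1 (SRF), 1 and 5 (turnover), and 0 and 1 (actins and myosin II). At an unadjusted p of 0.05 by glmTreat, the 3 counts of 0 were 1, 0 and 1, and by DESeq2 without the 1.5-fold margin 2, 1 and 2. Bundlers called lower were 2 with DESeq2, 2 with library size only and 2 with no filter. With library size only, 7 ERM partners and 9 genes of the membrane skeleton were higher, and 2 genes of actins and myosin II lower. The cause was not tested.

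Fits without 1 library called 3172 to 4173 genes higher and 3450 to 4405 lower. They called 10 to 13 bundlers higher and 1 to 5 lower, 1 to 3 of the membrane skeleton lower, 1 to 4 turnover genes higher, and 2 to 7 of actins and myosin II lower. A lone library of a group was assumed to vary like the other group. Libraries with the same number share only that number: the correlation of their deviations was 0.00077. With the replicate block, 4171 genes were higher and 4266 lower. CORO1A, ACTA2 and TAGLN have 16 to 86 counts a library, which limits their precision.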
